A study of Mus musculus with 6 samples.

Results

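The collagen genes are the rows of the deposited count table whose gene ID belongs to a mouse protein-coding gene with a symbol of the form Col, number, a, number. They numbered 44 of the 24415 genes in the table, and each of the 44 such symbols that RefSeq lists was found. By the structure of the protein they were divided into 11 fibrillar chains, 8 basement membrane chains (the 6 type IV chains and the multiplexins Col15a1 and Col18a1) and 25 others. The tissue was inguinal fat, a white depot under the skin, taken without fasting from 6 mice of 12 weeks on a C57BL/6 background. The groups were 3 WT mice and 3 Hsp20 KO mice, with 1 RNA-seq library for each animal. The Hspb6 gene codes for Hsp20, a small heat shock protein. The sources used here do not describe the knockout allele or the cells in which it acts.

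Collagens are proteins of 3 chains wound into a helix, secreted into the matrix around cells. Fibrillar collagens (types I, II, III, V, XI, XXIV and XXVII) build the tension-bearing fibrils of connective tissue. Type IV collagen forms the sheet-like network of basement membranes, and in fat each adipocyte is wrapped in such a membrane and held in a loose fibrillar meshwork rich in type VI collagen. The other collagens sit on fibril surfaces, anchor membranes, form short networks or span the cell membrane.

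The libraries held between 14078936 and 32648746 counts, the smallest being the one labelled knockout replicate 3. Levels are given as CPM, counts scaled by library totals that were adjusted with the trimmed mean of M values. Hspb6, the targeted gene, was at 12.6, 9.43 and 8.95 CPM in WT replicates 1 to 3. The libraries labelled knockout held 8.86, 1.51 and 3.94 CPM of it, in the order of their replicate numbers, so the first of these went against its label. That library is kept in each comparison. Hspb6 itself did not pass with it (log2 change -1.08, edgeR adjusted p = 0.227) and passed without it (log2 change -1.99, edgeR adjusted p = 0.0221). The adipocyte marker list was present in each library (summed level from 11710 to 17128 CPM), with Fabp4 at 5188 ± 830.5 CPM in WT. Epidermal and cartilage markers were low (at most 12.5 and 6.80 CPM summed over 6 genes each). Krt5, Krt14, Krt15, Acan, Matn1 and Matn3 had 0 to 10 counts in a library and were not tested, while Trp63, Dsg3, Krt10, Sox9, Comp and Cnmd were tested and 0 were called by edgeR, DESeq2 or limma-voom, with Sox9 lower at an unadjusted p of 0.0128. Trp63 passed without the library labelled knockout replicate 1 (edgeR adjusted p = 0.0281). Of the skeletal muscle list the summed level was 725 CPM in WT replicate 1 and between 49.3 and 112 CPM in the other libraries.

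The promoter windows of 5 members are printed because the results below turn on these genes: a pair transcribed in opposite directions from a common start region, 2 abundant fibrillar chains and the gene with the smallest p-value. Each holds 250 bases before and 50 after a RefSeq start, 5′ to 3′ on the strand of the gene (GRCm38.p6). For Col4a1 this start lies inside the gene, whose annotated end is 11312889. Its window and the overlap of annotated ends given below thus use different starts. Col4a1 (chr8:11312777-11313076, minus strand) and Col4a2 (chr8:11312555-11312854, plus strand) are shown with the 78 bases that both windows cover in capitals. In Col1a2 (chr6:4505368-4505667, plus), Col3a1 (chr1:45311288-45311587, plus) and Col8a1 (chr16:57754688-57754987, minus) capitals mark matches, on either strand, to the CCAAT box (CCAAT), the TATA box (TATAAA) or the GC box (GGGCGG).
Col4a1: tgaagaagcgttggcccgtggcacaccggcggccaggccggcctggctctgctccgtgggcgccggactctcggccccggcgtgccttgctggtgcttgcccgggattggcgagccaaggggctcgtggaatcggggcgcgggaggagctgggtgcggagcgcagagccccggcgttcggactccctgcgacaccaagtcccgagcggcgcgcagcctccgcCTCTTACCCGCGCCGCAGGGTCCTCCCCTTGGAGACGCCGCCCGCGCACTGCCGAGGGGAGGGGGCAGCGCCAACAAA
Col4a2: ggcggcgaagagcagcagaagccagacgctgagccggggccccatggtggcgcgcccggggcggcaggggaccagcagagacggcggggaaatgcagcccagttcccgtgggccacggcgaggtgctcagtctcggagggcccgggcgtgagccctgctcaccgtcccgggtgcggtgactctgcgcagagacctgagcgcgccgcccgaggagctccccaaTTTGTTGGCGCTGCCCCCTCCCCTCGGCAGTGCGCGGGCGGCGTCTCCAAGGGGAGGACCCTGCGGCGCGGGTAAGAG
Col1a2: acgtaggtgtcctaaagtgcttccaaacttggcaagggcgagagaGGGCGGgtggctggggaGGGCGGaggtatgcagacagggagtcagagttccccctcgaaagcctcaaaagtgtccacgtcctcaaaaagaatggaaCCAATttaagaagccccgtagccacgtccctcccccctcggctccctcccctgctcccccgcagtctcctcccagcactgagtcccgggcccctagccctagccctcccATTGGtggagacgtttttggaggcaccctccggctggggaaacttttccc
Col3a1: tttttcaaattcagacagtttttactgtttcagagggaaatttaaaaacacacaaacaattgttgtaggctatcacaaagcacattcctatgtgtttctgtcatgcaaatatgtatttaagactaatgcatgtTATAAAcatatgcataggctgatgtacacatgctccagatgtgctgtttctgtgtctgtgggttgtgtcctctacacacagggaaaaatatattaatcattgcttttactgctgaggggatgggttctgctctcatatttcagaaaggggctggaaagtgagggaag
Col8a1: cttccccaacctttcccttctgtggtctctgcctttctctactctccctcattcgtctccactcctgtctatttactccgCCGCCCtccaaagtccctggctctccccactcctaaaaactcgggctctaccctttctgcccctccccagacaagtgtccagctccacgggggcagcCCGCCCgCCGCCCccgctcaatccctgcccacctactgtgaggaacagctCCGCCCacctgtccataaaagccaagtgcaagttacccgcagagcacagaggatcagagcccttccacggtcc

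RefSeq windows were at hand for 35 of the 44 genes, 38 windows in all. The GC box was found in 23 of the 38, 60.5%, against 35.7% of 32851 windows of 300 bases over the genome. The CCAAT box was found in 34.2% of them against 37.4%, and the TATA box in 13.2% against 13.6%. Col8a1 had 4 GC boxes and neither other motif, Col3a1 had 1 TATA box alone, and Col1a2 had 2 CCAAT boxes and 2 GC boxes. The Col4a1 window held 1 CCAAT box and 1 GC box and the Col4a2 window 1 and 3, the shared bases being counted in both. None of the 44 genes lies on chromosome 7, where Hspb6 is.

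No collagen gene passed the test between genotypes. Of the 44, 40 passed the filter on low counts, and edgeR's quasi-likelihood test called 0 in either direction, a call being an adjusted p (Benjamini-Hochberg) below 0.05. Over all 15994 genes tested it called 4.23% higher and 3.42% lower, 7.65% in all. DESeq2 called Col8a1 higher and no other collagen, against 7.10% of all genes higher and 6.40% lower, 13.5% in all. limma-voom called 0 collagens, against 4.03% of all genes higher and 3.26% lower, 7.29% in all. At an unadjusted p under 0.05, edgeR had 5 collagens higher and 1 lower, where it had 13.3% and 12.7% of all genes, 26.0% in either direction. DESeq2 and limma-voom put 7 and 8 collagens past that level, 17.5% and 20% of the 40, against 24.8% and 25.9% of all genes. The groups did not overlap for 4 collagens with each labelled knockout library above WT and for 6 with each below, where 16.9% and 15.6% of all genes did not overlap in these directions, 32.5% in all. Under each of these rules the share of collagens, both directions together, was below that of all genes tested.

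**Figure D1:**
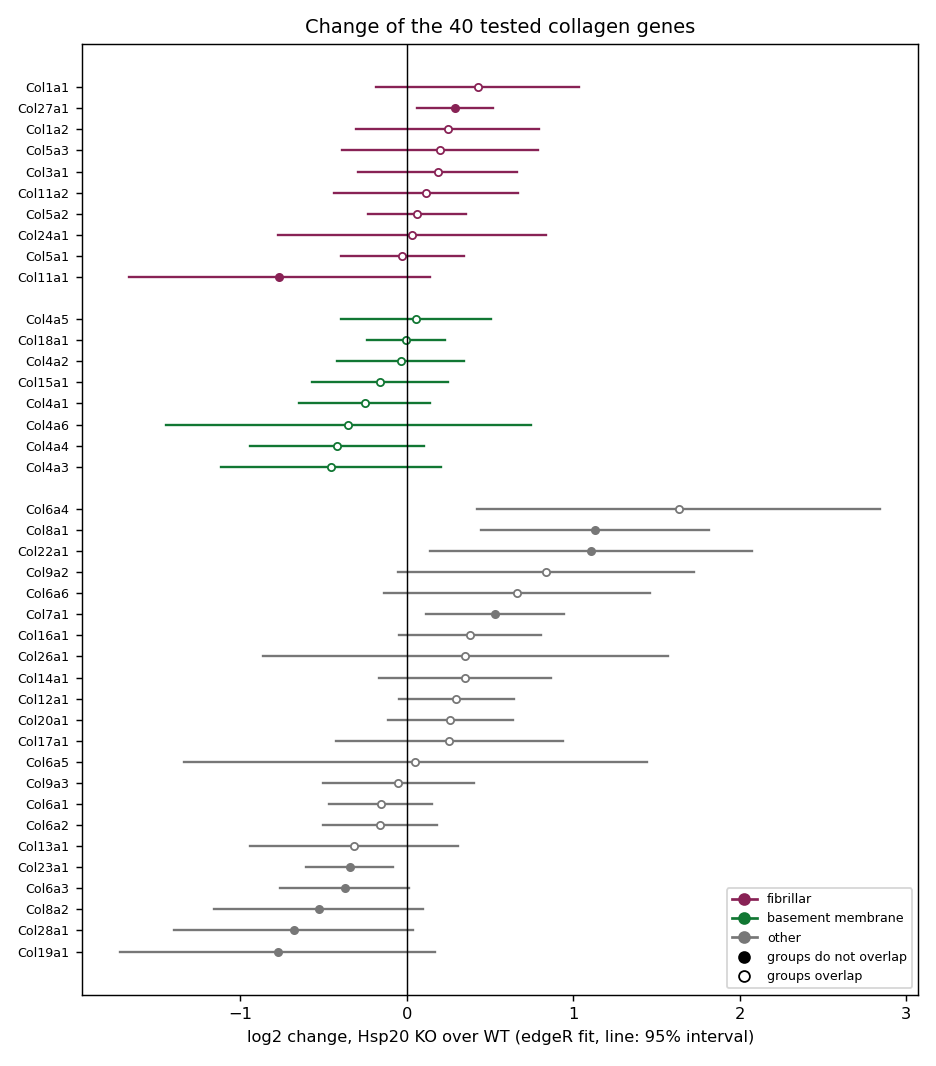
Log2 change of each of the 40 tested collagen genes in the 3 libraries labelled Hsp20 KO over the 3 WT libraries (x axis, edgeR fit), with its 95% interval as a line, ordered within fibrillar, basement membrane and other collagens. Filled points mark genes whose groups do not overlap, and the basement membrane class has none of these.

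The sign of the estimated changes was counted in each class, where no gene was called. Of 10 tested fibrillar chains 8 had log2 changes above 0, with a median of 0.15. Of 8 basement membrane chains 7 had a negative log2 change, with a median of -0.20. Some of the counted changes were near 0: Col18a1 (-0.0029) and Col4a2 (-0.035) below it, and the fibrillar Col24a1 (0.031) and Col5a2 (0.064) above it. Of 22 tested others 13 were positive and 9 negative, with a median of 0.26. Over all 15994 genes tested 8010 were positive and 7984 negative, with a median of 0.00061. The class medians moved with single libraries: leaving out each in turn gave 0.052 to 0.30 for fibrillar, -0.29 to -0.025 for basement membrane and 0.067 to 0.36 for other collagens. In bulk tissue, fewer cells of a type and less RNA per cell cannot be told apart.

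Fibrillar collagens carried most of the collagen RNA. Col3a1, the type III chain of elastic tissues (chromosome 1, 45311538 to 45349706), was the most abundant per length in WT, at 873 CPM per kilobase of its principal transcript. It was followed by Col1a2 at 458 and Col1a1 at 304, the chains of type I collagen, the main fibril of connective tissue. Among the type V chains, which set fibril diameter, Col5a3 stood at 99.9 CPM per kilobase in WT, Col5a2 at 52.7 and Col5a1 at 49.5.

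Col3a1 was at 4903, 4510 and 5159 CPM in WT, in the order of replicates 1 to 3 used throughout, and at 6812, 4180 and 5585 CPM in those labelled knockout. Col1a1 (chromosome 11, 94936224 to 94953042) was at 1814, 1541 and 2047 CPM in WT and at 3365, 1630 and 2260 CPM in those labelled knockout. Col1a2 was at 2426, 2251 and 2677 CPM in WT and at 3925, 2069 and 2725 CPM. In all 3 genes the library labelled knockout replicate 1 was the highest of the 6 and the groups overlapped, replicate 2 lying inside or below the WT range.

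The log2 change of Col1a1 was 0.43 ± 0.26 (SE, edgeR adjusted p = 0.349), with a 95% interval of the fold from 0.880 to 2.05. For Col1a2 the interval ran from 0.812 to 1.73 and for Col3a1 from 0.818 to 1.58 (edgeR adjusted p = 0.556 and 0.614). These intervals leave room for changes in either direction. Without the library labelled knockout replicate 1 the log2 changes of Col1a1, Col1a2 and Col3a1 were 0.11, -0.031 and 0.0084.

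**Figure D2:**
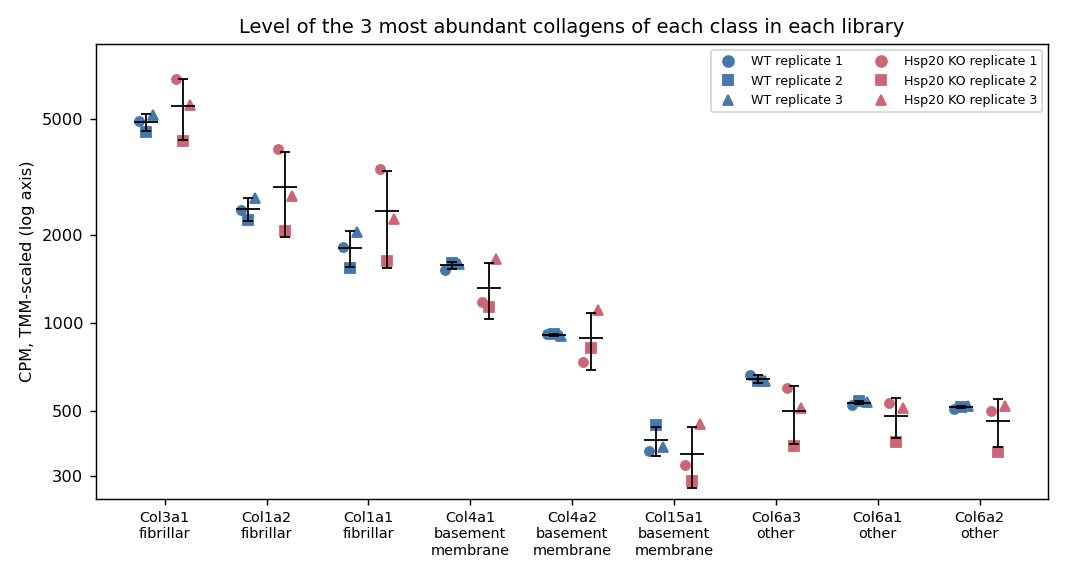
CPM (log axis) of the 3 most abundant collagens of each class in each of the 6 libraries, with the mean and SD of each group of 3 as black bars. Col6a3 is the 1 gene shown whose groups do not overlap, and the library labelled knockout replicate 1 is the highest for Col3a1, Col1a2 and Col1a1.

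Col5a1, Col5a2 and Col5a3 had log2 changes of -0.025, 0.064 and 0.20, with intervals that included no change. Col5a3 was at 605, 614 and 614 CPM in WT and at 523, 548 and 1033 CPM in those labelled knockout. Replicate 3 of the latter was far above the other 5 libraries, and without it the log2 change was -0.18.

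Col27a1, a fibrillar chain best known from cartilage, was the single fibrillar gene with each labelled knockout library above WT. It was at 25.9, 23.2 and 22.1 CPM in WT and at 31.9, 27.0 and 28.1 CPM in those labelled knockout (log2 change 0.29 ± 0.099 SE, edgeR adjusted p = 0.117). Col11a1, a minor chain of cartilage fibrils, lay the other way, at 1.55, 2.09 and 2.03 CPM in WT and 1.45, 0.458 and 1.49 CPM in those labelled knockout (edgeR adjusted p = 0.261). Neither passed the test, and the gaps between the groups were narrow. Col11a2 and Col24a1 were at 6.55 ± 1.14 and 0.702 ± 0.203 CPM in WT (SD, n = 3), with overlapping groups. Col2a1, the main cartilage collagen, had between 0 and 6 counts in a library and was not tested.

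The type IV network was dominated by Col4a1 and Col4a2, whose chains form the common basement membrane trimer. In WT they were at 238 and 141 CPM per kilobase, against 3.11 for Col4a5 and less than 1 for Col4a3, Col4a4 and Col4a6, chains that are typical of kidney and other specialised membranes. Col4a1 was at 1520, 1599 and 1594 CPM in WT and at 1176, 1133 and 1651 CPM in those labelled knockout. Col4a2 was at 912, 915 and 899 CPM in WT and at 733, 820 and 1107 CPM. For both genes WT varied little, while the library labelled knockout replicate 3 lay above WT and the other 2 below it.

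The log2 change was -0.25 ± 0.17 (SE) for Col4a1 and -0.035 ± 0.16 for Col4a2 (edgeR adjusted p = 0.393 and 0.913). The 95% intervals of the fold were 0.640 to 1.10 and 0.749 to 1.27. Col4a3 and Col4a4 had log2 changes of -0.45 and -0.42 (edgeR adjusted p = 0.359 and 0.284). These genes are also transcribed in opposite directions from a common start region on chromosome 1, and their annotated ends overlap by 114 bases. Those of Col4a1 (chromosome 8, 11198423 to 11312889) and Col4a2 (11312805 to 11449287) overlap by 85 bases. The sources used here do not say whether counting used the strand, so reads in these overlaps may be shared.

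Col4a5 and Col4a6 are transcribed away from each other on the X chromosome, 1274 bases apart, and differed in level: 20.3 ± 3.08 against 1.29 ± 0.411 CPM in WT (SD, n = 3). Neither passed (log2 change 0.057 and -0.35). Col15a1, which links basement membranes to nearby fibrils, was at 396 ± 44.9 CPM in WT and 354 ± 83.7 CPM in those labelled knockout. Col18a1, the precursor of endostatin, was at 135.8 ± 7.998 and 135.7 ± 15.97 CPM, and its 95% interval, from 0.848-fold to 1.18-fold, was the narrowest of the basement membrane chains.

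Type VI collagen, which forms beaded microfibrils around fat cells, was the most abundant of the other types. Col6a2, Col6a1 and Col6a3, the chains of the classical trimer, were at 130, 130 and 71.4 CPM per kilobase in WT. Col6a3, the chain that releases the adipose peptide endotrophin, was at 665, 631 and 632 CPM in WT and at 600, 380 and 511 CPM in those labelled knockout. Each labelled knockout library was below each WT library, and the log2 change of -0.37 ± 0.17 (SE) did not pass (edgeR adjusted p = 0.209, or 0.0630 without the library labelled knockout replicate 1). Col6a1 and Col6a2 had log2 changes of -0.16 and -0.16, with replicate 2 the lowest of the 6 libraries for both.

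Col6a4, Col6a5 and Col6a6 encode alternative type VI chains and lie in a row on chromosome 9, 27.8 and 27.9 kb apart and on the same strand. Col6a4 (105990318 to 106096828) was at 8.81, 8.55 and 5.68 CPM in WT and at 24.9, 38.8 and 6.76 CPM in those labelled knockout. Replicates 1 and 2 were far above WT and replicate 3 was inside its range, which gave the largest change among the 40 tested collagens, a log2 change of 1.64 ± 0.52 (SE, edgeR adjusted p = 0.0988). Without the library labelled knockout replicate 3 it passed (log2 change 2.06, edgeR adjusted p = 0.0149). Col6a6 was at 27.7, 12.5 and 11.5 CPM in those labelled knockout against 11.0 ± 2.67 CPM in WT. Col6a5 ranged from 6.35 to 16.1 CPM in WT and from 4.26 to 19.7 CPM in those labelled knockout. For Col6a5 and Col6a6 the library labelled knockout replicate 1 was the highest, not replicate 2, so the 3 neighbours did not share a pattern across libraries.

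Col8a1, a short-chain collagen of vessel walls and Descemet's membrane (chromosome 16, 57624256 to 57754737), had the smallest p of the collagens. It was at 6.91, 7.60 and 6.50 CPM in WT and at 9.22, 14.7 and 22.7 CPM in those labelled knockout. All 3 of these lay above WT, by amounts that differed widely among them. The fold was 2.19 (95% interval 1.36 to 3.52), with edgeR adjusted p = 0.0587. It passed with DESeq2 (adjusted p = 0.00180), with no filter on low counts (edgeR adjusted p = 0.0402) and without the library labelled knockout replicate 1 (edgeR adjusted p = 0.00720), and its adjusted p ranged up to 0.190 when other libraries were left out. Col8a2, the partner chain, was at 0.795 ± 0.0953 CPM in WT and 0.536 ± 0.0853 CPM in those labelled knockout (SD, n = 3 each), with each labelled knockout library below WT (edgeR adjusted p = 0.263). Col10a1, the third short-chain gene, typical of growing cartilage, had between 2 and 8 counts in a library and was not tested.

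Among collagens that sit on fibril surfaces, Col14a1, Col16a1 and Col12a1 were the most abundant, at 92.4 ± 8.63, 29.1 ± 0.687 and 12.2 ± 1.25 CPM in WT (SD, n = 3). Their log2 changes were 0.35, 0.38 and 0.30, and none passed (edgeR adjusted p from 0.241 to 0.365). Without the library labelled knockout replicate 1 those of Col14a1 and Col16a1 were 0.024 and 0.11, and that of Col12a1 was 0.39. Col22a1, best known from muscle-tendon junctions, was at 0.194, 0.359 and 0.181 CPM in WT and at 0.398, 0.595 and 0.668 CPM in those labelled knockout (edgeR adjusted p = 0.145). This is a level of few counts, with each labelled knockout library above WT. Col19a1 was lower in each labelled knockout library, 0.291 ± 0.0987 against 0.479 ± 0.124 CPM in WT (edgeR adjusted p = 0.276). Col20a1, Col9a2 and Col9a3 had overlapping groups, and Col9a1 had between 0 and 8 counts in a library and was not tested.

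Col7a1, the anchoring fibril of skin, was at 3.38, 2.51 and 2.93 CPM in WT and at 4.66, 4.35 and 3.64 CPM in those labelled knockout (fold 1.45, 95% interval 1.08 to 1.93, edgeR adjusted p = 0.112). The labelled knockout libraries were all above WT. The summed epidermal markers ranged from 8.52 to 12.5 CPM in WT and from 6.14 to 11.8 CPM in those labelled knockout, and their part in the level of Col7a1 was not tested.

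Of the collagens that span the cell membrane, Col23a1 was at 9.63, 9.43 and 9.40 CPM in WT and at 7.63, 7.88 and 6.91 CPM in those labelled knockout. The groups were narrow and lay apart, and the log2 change of -0.34 ± 0.11 (SE) did not pass (edgeR adjusted p = 0.109). Col13a1 and Col17a1 were at 2.42 ± 0.269 and 1.40 ± 0.302 CPM in WT, with overlapping groups, and Col25a1 had between 0 and 7 counts and was not tested. Col28a1, known from peripheral nerve, was at 7.30, 6.50 and 6.29 CPM in WT and at 5.93, 4.17 and 2.08 CPM in those labelled knockout. Each labelled knockout library was below WT (log2 change -0.68 ± 0.31 SE, edgeR adjusted p = 0.213), and the part of Schwann cells was not tested, their summed markers ranging from 493 to 568 CPM in WT and from 392 to 670 CPM in those labelled knockout. Col26a1 overlapped between the groups.

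The make-up of the collagen pool was compared by the share of each class among collagen counts, which does not depend on library scaling. Collagens took 1.52%, 1.51% and 1.65% of the counts in WT replicates 1 to 3 and 1.97%, 1.32% and 1.69% in the libraries labelled knockout. Fibrillar chains made up 68.3%, 65.9% and 69.7% of collagen counts in WT and 78.0%, 70.8% and 70.8% in those labelled knockout. The other collagens made up 12.4%, 12.8% and 11.6% in WT and 9.94%, 10.6% and 10.02% in those labelled knockout.

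For both of these classes the groups did not overlap in share, but their summed levels did overlap. Fibrillar chains summed to 9666 to 11330 CPM in WT and to 9099 to 15497 CPM in those labelled knockout. The other collagens summed to 1871 to 1919 CPM in WT and to 1363 to 1975 CPM in those labelled knockout. Type VI chains held most of this sum, on average 1718 of 1891 CPM in WT, so the share says little about the rest of the class. The 3 shares of a library add up to the whole, so they are not independent. The basement membrane share was 19.2%, 21.3% and 18.7% in WT and 12.1%, 18.6% and 19.2% in those labelled knockout, with overlap. The mean share went from 68.0% to 73.2% for fibrillar, from 19.8% to 16.6% for basement membrane and from 12.3% to 10.2% for other collagens, and the lowest basement membrane share was that of the library with the highest fibrillar share. The library labelled knockout replicate 1 stood furthest from WT for the fibrillar share. In it Col1a1, Col1a2 and Col3a1 alone made up 71.0% of collagen counts, against 56.6% to 60.8% in WT and 61.3% and 59.9% in replicates 2 and 3. No test was made of these shares.

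**Figure D3:**
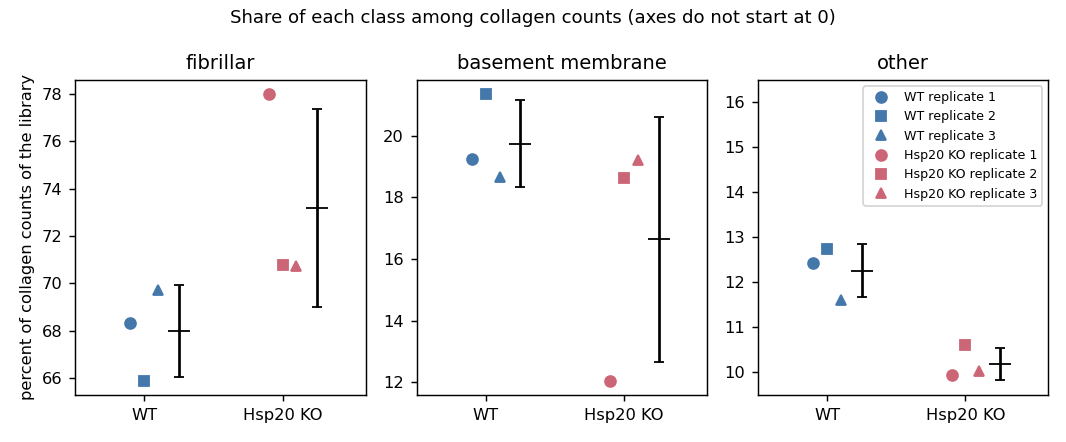
Percent of the collagen counts of each library that belong to fibrillar, basement membrane and other collagens, with the mean and SD of each group of 3 as black bars. The labelled knockout libraries lie above WT for the fibrillar share (70.8% to 78.0% against 65.9% to 69.7%) and below it for the other collagens. The summed CPM of both classes overlapped between the groups.

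Many collagens are assembled from more than 1 gene product, so the ratio of the counts of partner chains was taken within each library. The 11 pairs were chosen from known trimers after the values were seen, and the smallest two-sided p that an exact permutation test of 3 against 3 allows is 0.1. The ratio of Col1a1 to Col1a2 was 0.748, 0.685 and 0.765 in WT and 0.857, 0.788 and 0.830 in the libraries labelled knockout. That of Col4a1 to Col4a2 was 1.67, 1.75 and 1.77 in WT and 1.604, 1.382 and 1.491 in those labelled knockout. For both pairs the groups did not overlap (exact permutation p = 0.1 each, 0.275 adjusted over the 11 pairs), although neither chain alone separated the groups. The log2 ratio of Col4a1 to Col4a2, the genes whose printed windows share 78 bases, was -0.21 relative to WT on average in those labelled knockout.

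The ratio of Col6a3 to Col6a2 was 1.31, 1.22 and 1.22 in WT and 1.20, 1.05 and 0.983 in those labelled knockout. That of Col8a1 to Col8a2 was 8.09, 11.1 and 7.68 in WT and 15.0, 26.7 and 51.0 in those labelled knockout, where Col8a2 had as few as 6 counts. These 2 pairs did not overlap either (exact permutation p = 0.1 each, 0.275 adjusted), the first by a narrow gap. The ratio of Col6a1 to Col6a2 overlapped between the groups, at 1.03 ± 0.00797 in WT and 1.04 ± 0.0539 in those labelled knockout (SD, n = 3). The other 6 pairs overlapped too (exact permutation p from 0.2 to 1). In all, 4 of the 11 pairs did not overlap. Among single genes 32.5% of those tested did not overlap in CPM, and ratios of other gene pairs were not taken for comparison.

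**Figure D4:**
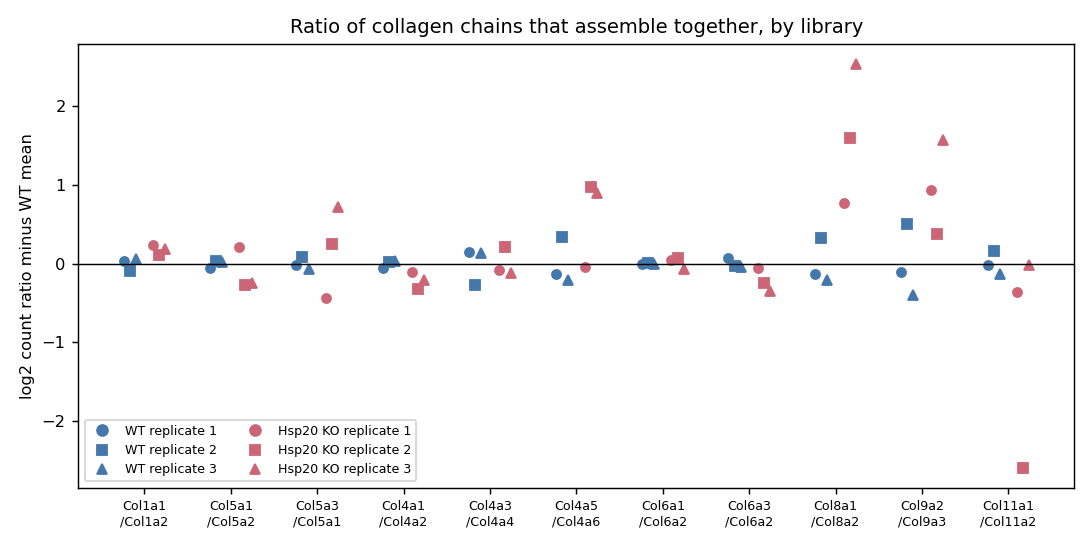
Log2 ratio of the counts of 2 partner chains in each library, minus the mean of the 3 WT libraries, for 11 pairs. The labelled knockout libraries lie apart from WT for Col1a1 to Col1a2, Col4a1 to Col4a2, Col6a3 to Col6a2 and Col8a1 to Col8a2. Among single genes tested, 32.5% did not overlap in CPM.

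The libraries labelled knockout differed among themselves more than WT libraries did. The coefficient of variation of CPM over the 3 labelled knockout libraries had a median of 25.5% over the 40 tested collagens, against 10.7% over the WT libraries. Over all genes tested these medians were 11.6% and 8.23%. The labelled knockout libraries were the more variable for 36 of 40 collagens, 90.0%, and for 64.5% of all genes. For 14 collagens with a mean of at least 100 CPM the medians were 22.2% and 5.61%, and over the 1996 genes at that level 9.94% and 5.83%. Genes measured in 1 library are not independent, and no test was made.

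**Figure D5:**
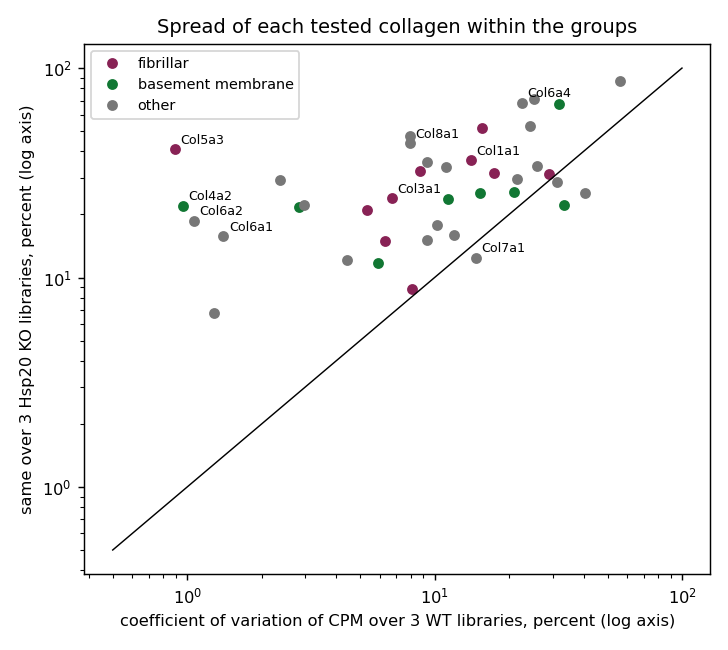
Coefficient of variation of CPM over the 3 libraries labelled Hsp20 KO (y axis, log) against that over the 3 WT libraries (x axis, log) for each of the 40 tested collagens, with the line of equal values. Of the 40, 36 lie above the line, among them Col5a3 at 0.890% and 41.0%.

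Among the libraries labelled knockout, replicate 2 was the lowest for 8 of 10 fibrillar chains, against 35.3% of all genes. It was the lowest for 11 of the 14 abundant collagens, against 38.8% of the 1996 genes with a mean of at least 100 CPM. The median log2 difference of fibrillar chains from replicate 2 was 0.56 in replicate 1 and 0.43 in replicate 3, against -0.0099 and 0.038 over all genes. For basement membrane chains it was 0.00085 and 0.39, so replicate 1 was high in fibrillar but not in basement membrane chains. The fibroblast and progenitor markers, 8 genes led by Fbn1 and Pi16, summed to 1468, 877 and 1257 CPM in the libraries labelled knockout replicates 1 to 3 and to between 1335 and 1542 CPM in WT. Replicate 2 was thus the lowest in these markers too, for 7 of the 8 genes. Among the libraries labelled knockout it was also the lowest for 6 of 6 Schwann cell, 6 of 8 endothelial and 5 of 7 adipocyte markers. It was the lowest for 1 of 6 skeletal muscle markers. The low replicate 2 was thus not particular to the fibroblast list. All 8 fibroblast and progenitor markers had log2 changes below 0 (median -0.26), with 0 called by edgeR, DESeq2 or limma-voom. At an edgeR p under 0.05 before adjustment 1 of the 8 was lower, against 12.7% of all genes. The part of these markers in the collagen levels was not tested. The endothelial markers summed to 811, 828 and 983 CPM against 947 to 1056 CPM in WT, with 0 of 8 called by edgeR, DESeq2 or limma-voom. Of the 8, 2 were below WT at an edgeR p under 0.05 before adjustment, against 12.7% of all genes. The 8 smooth muscle and pericyte markers summed to 573 to 654 CPM in WT and to 651 to 782 CPM in those labelled knockout. This sum includes Cspg4, which had the largest change of the list (log2 change 1.27). Of the 8, 5 had log2 changes below 0 and 3 above. At an edgeR p under 0.05 before adjustment 3 were lower and 1 higher, against 12.7% and 13.3% of all genes. Where edgeR called 4.23% of all genes higher and 3.42% lower, each of the 3 tools called 1 marker higher and 1 lower. These were Cspg4, the NG2 proteoglycan of pericytes, higher at 193 ± 42.6 against 80.0 ± 10.3 CPM in WT (edgeR adjusted p = 0.00926), and Cnn1, a calponin of smooth muscle, lower at 2.11 ± 0.498 against 3.77 ± 0.131 CPM (edgeR adjusted p = 0.0445). The call of Cspg4 ended without WT replicate 2 or 3 (edgeR adjusted p = 0.0506 and 0.0514), and that of Cnn1 when any 1 library was left out (0.0502 to 0.145). Cnn1 is named after its values were seen. The 6 macrophage markers summed to 1258 to 1409 CPM in WT and to 1342, 1094 and 1042 CPM in those labelled knockout. Of these, edgeR and limma-voom called 0 and DESeq2 called 2 lower, against 6.40% of all genes. At an unadjusted p under 0.05 edgeR put 3 lower, against 12.7% of all genes. The part of these cells in the collagen levels was not tested.

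The 19 genes listed for collagen chain processing included genes that hydroxylate, fold or export the chains, and the transcription factor Creb3l1. Of the 19, 2 fell and 0 rose by edgeR and by limma-voom (median log2 change -0.016), and DESeq2 called 5 lower. Of all genes, edgeR, limma-voom and DESeq2 called 3.42%, 3.26% and 6.40% lower. Creb3l1, a membrane-bound transcription factor that acts on type I collagen genes in bone, fell from 38.0, 37.1 and 47.2 CPM in WT to 20.2, 12.7 and 15.4 CPM in the libraries labelled knockout. The groups were far apart, with a log2 change of -1.33 ± 0.18 (SE, edgeR adjusted p = 0.00926), and it passed under each alternative run (adjusted p up to 0.0478). P4ha2, a subunit of prolyl 4-hydroxylase, fell by 0.50 on the log2 scale (edgeR adjusted p = 0.0418), from 27.3 ± 1.79 to 19.2 ± 2.65 CPM. The call of P4ha2 ended when any library but the one labelled knockout replicate 1 was left out (edgeR adjusted p from 0.0724 to 0.150). Serpinh1, the collagen chaperone Hsp47, was at 525 ± 37.9 and 393 ± 68.7 CPM, with each labelled knockout library below WT. It passed with DESeq2 but not here (edgeR adjusted p = 0.124), and it is named after its values were seen.

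Genes that cleave or cross-link procollagen had 0 of 12 tested called by edgeR, with 2 lower at an unadjusted p under 0.05, against 12.7% of all genes. The 2 were Loxl2, a cross-linking lysyl oxidase (187 ± 8.82 to 130 ± 22.6 CPM, edgeR adjusted p = 0.0521), and Adamts2, which trims the amino end of procollagen (152 ± 3.25 to 115 ± 14.3 CPM, 0.0529). Both lay just outside the threshold, and Adamts2 is named after its values were seen. Loxl2 passed with DESeq2 (adjusted p = 0.00475), with no filter on low counts (edgeR, 0.0421) and without the library labelled knockout replicate 1 (edgeR, 0.0279). Adamts2 passed with these (adjusted p = 0.00789, 0.0473 and 0.0395) and with a filter of 1 CPM in 3 libraries (0.0497), while limma-voom called 0 of the list. Of 9 tested collagen receptors 0 were called by edgeR, DESeq2 or limma-voom. At an edgeR p under 0.05 before adjustment 1 was above and 1 below, against 13.3% and 12.7% of all genes. Itgb1, the common beta chain of collagen-binding integrins, was at 433 ± 14.1 and 405 ± 41.4 CPM, and Ddr2, a tyrosine kinase receptor for fibrillar collagen, at 215 ± 35.8 and 150 ± 38.6 CPM.

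Of 12 fibril-associated proteins edgeR and limma-voom called 0 and DESeq2 called 1 higher, against 7.10% of all genes. At an unadjusted p under 0.05 edgeR put 1 in each direction, against 13.3% of all genes higher and 12.7% lower. Sparc and Dcn, a collagen-binding glycoprotein and proteoglycan, had log2 changes of 0.098 and -0.30. The partners of type IV collagen in basement membranes had 0 of 14 called by edgeR or limma-voom. DESeq2 called 1 of them higher and 3 lower, against 7.10% and 6.40% of all genes. Before adjustment edgeR put 2 above and 7 below at p under 0.05, against 13.3% and 12.7% of all genes, and the median log2 change was -0.30. In 9 of the 14 each labelled knockout library was below WT, as in 15.6% of all genes. Nid1, the nidogen that ties laminin to type IV collagen, was at 865 ± 48.6 and 640 ± 81.4 CPM (edgeR adjusted p = 0.0811, DESeq2 0.00429), and Hspg2, perlecan, at 713 ± 46.7 and 643 ± 160 CPM. Of 16 TGF-beta ligands, receptors and targets 1 fell by edgeR and by limma-voom and 3 by DESeq2, against 3.42%, 3.26% and 6.40% of all genes. The gene called by edgeR was Smad3, a transducer of the signal that induces fibrillar collagen genes (54.5 ± 3.62 to 35.7 ± 3.02 CPM, edgeR adjusted p = 0.0131). The call of Smad3 ended without WT replicate 2 (edgeR adjusted p = 0.0672).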

How the data were processed

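The authors deposited 1 table of raw read counts for the 6 RNA-seq samples, neither normalized nor pooled. Per the submitters' processing notes, the builds were mm10 and GRCm38 and the tools included TopHat, DESeq, bcl2fastq and CASAVA 1.8. The sources used here do not name the counter, the annotation or the strand setting. Each column carries a sample's name from the labels, and RefSeq genes of GRCm38.p6 gave a symbol for 24334 of 24415 gene IDs. The 81 others held at most 5.74% of a library.

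Counts were tested with edgeR 4.0.16 in R 4.3.3 on the whole table: genes kept by filterByExpr (at least 10 counts, 15 in total), scaled by TMM, and tested by quasi-likelihood F with a single term for genotype. P-values were Benjamini-Hochberg adjusted over all genes tested, with a threshold of 0.05. The SE is that implied by the F statistic, and 95% intervals use its degrees of freedom. Lengths are those of GENCODE M21 principal transcripts. Alternatives were other normalizations and filters, DESeq2 1.42.0, limma-voom (limma 3.58.1), robust dispersions, a replicate block and leaving out each library. The test was checked on simulated counts with the same dispersion in both groups. That check did not cover the greater spread among the libraries labelled knockout. Replicates differed by more than sampling noise in each pair (lowest chi-square over its degrees of freedom 17.9).

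The members, classes and lists were chosen with earlier results of these data known, and no list was tested as a set. Each collagen was to be named, those called and the 3 most abundant of each class with values in every library, and up to 4 called genes of each pathway list, or its 2 most abundant. Library values of other collagens were added after they were seen. Figures were drawn with matplotlib 3.10.9.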

Additional observations from a re-analysis of the deposited data

How the results depend on the processing

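The count of 0 collagens called became 1 with no filter on low counts and with DESeq2 (Col8a1 in both), and ranged from 0 to 1 when each library was left out (Col8a1 without the library labelled knockout replicate 1, Col6a4 without replicate 3). The total of 1223 genes called became 2159 with DESeq2, 395 with the replicate block, and 128 to 1671 when each library was left out (128 and 137 without WT replicates 3 and 2, 593 to 654 without WT replicate 1 or the libraries labelled knockout replicates 2 or 3). Replicate numbers are shared by the groups, but same-numbered libraries did not deviate together (correlations of -0.0380, 0.0917 and -0.0957), so the block fit is given only here, and in it 0 collagens were called. P4ha2, Smad3 and Cnn1 did not pass in it (adjusted p = 0.0703, 0.0517 and 0.0938). Upper quartile normalization put 60.7% of all calls in the higher direction against 55.3%.

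The median log2 change of the other collagens was 0.051 with no filter, 0.17 with limma-voom and 0.067 to 0.36 when each library was left out. That of the basement membrane collagens was -0.29 to -0.025, and -0.30 over type IV chains alone. Small changes turned sign when a library was left out. The ranges were -0.031 to 0.44 for Col1a2, -0.16 to 0.13 for Col5a1, -0.052 to 0.15 for Col5a2, -0.18 to 0.37 for Col5a3, -0.16 to 0.29 for Col11a2, -0.14 to 0.31 for Col24a1 and -0.22 to 0.086 for Col4a2. They were -0.16 to 0.22 for Col4a5, -0.095 to 0.058 for Col18a1, -0.98 to 0.61 for Col6a5, -0.11 to 0.037 for Col9a3 and -0.47 to 0.79 for Col26a1. They were -0.22 to 0.022 for Pcolce, -0.10 to 0.22 for Sparc, -0.32 to 0.080 for Pi16, -0.18 to 0.10 for Mbp and -0.12 to 0.083 for Lyz2. For log2 ratios they were -0.10 to 0.48 for Col5a3 to Col5a1, -0.13 to 0.077 for Col4a3 to Col4a4 and -0.018 to 0.053 for Col6a1 to Col6a2. Upper quartile normalization gave 0.010 for Col18a1 and 0.000351 for Mbp, and Col6a5 became -0.013 with limma-voom and -0.16 with the replicate block. The cause of these shifts was not tested. Collagens of under 1 CPM rest on few counts, above all in the smallest library.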
